A study of Mus musculus with 24 samples.

Results

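Repeat transcripts in the nuclear RNA of mouse ES cells without *Mettl3* were compared with those of the RBC ES cells from which the mutant cells were derived. The members are the repeat rows of the MeRIP-seq count table, 1153 repeat subfamilies of 49090 rows in all, read in the input RNA that was set aside before precipitation with the m6A antibody. Of them 1139 had a count in at least 1 of the 4 libraries compared, 14 were listed at 0 in these libraries, and 1097 passed the filter on low counts and were tested. Each row sums the reads of all genomic copies of 1 subfamily, so a level does not say which copy was transcribed, or whether the repeat lay within a longer host transcript.

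The control cells, RBC, carry BirA-V5 and Cre-ERT2 at the Rosa26 locus on a mixed 129/Sv and C57Bl6 background, and the *Mettl3* KO cells, which are the single clone 2c4d, carry the same alleles. The other lines of the series, used here only for comparison, were WT26 wild-type cells and the single *Mettl14* KO clone A10. Lines were grown on gelatin with Serum Replacement and LIF, and each line gave 2 biological replicates of input and of IP, each replicate pooled from 3 MeRIP reactions. With 1 clone per knockout, an effect of the lost gene and a property of the clone cannot be told apart. In bulk RNA, fewer cells of a type and less RNA per cell cannot be told apart either.

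A large part of a mammalian genome derives from repeats, and most copies can no longer move. LINE elements such as L1 encode the proteins that copy their own RNA into DNA, SINE elements borrow those proteins, and LTR elements are endogenous retroviruses (ERVs) made of an internal coding part, named here with the ending "-int", between terminal repeats (LTRs) that hold the promoter. Satellites are tandem arrays at and around centromeres. In ES cells young L1 and ERV copies are kept down by DNA methylation and by H3K9 methylation set by Setdb1, which is brought to ERVs by the corepressor Trim28. METTL3 is the catalytic subunit of the complex that writes m6A on RNA, METTL14 is its RNA-binding partner, and m6A is known to affect the stability of transcripts, those of retrotransposons included.

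The *Mettl3* KO libraries held 20797521 and 11247530 counted reads, and the RBC libraries held 19302923 and 14804156. Repeats took 40.5% and 43.3% of the reads in the former and 32.7% and 41.8% in the latter. Replicate 1 of RBC stood apart from the other 3 libraries, since its 10 most counted genes took 32.2% of its reads, against 18.1% to 23.1%. Gm26917 (11.2%) and CT010467.1 (8.02%) led them. Gm26917 was also the most counted gene in the other 3 libraries, at 8.74% to 17.0%. Scaling by the total count of gene rows, an alternative used below, includes these rows and so depends on them. Counts were divided by size factors taken from gene rows alone, and the levels given below are these normalized read counts. They are comparable between libraries for 1 subfamily but not between subfamilies, which differ in length and copy number. The *Mettl3* transcript did not mark the knockout at the level of RNA, with 566 and 486 normalized counts in *Mettl3* KO and 550 and 551 in RBC cells, a log2 fold change of -0.06. The lesion of this clone is not given in the sources used here, and a small frameshift would not be seen in a gene's count.

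Few repeat transcripts were called different between *Mettl3* KO and RBC cells. In the fit of all 16 MeRIP-seq libraries (edgeR quasi-likelihood test, Benjamini-Hochberg adjustment over the 22564 tested rows), 1 of 1097 subfamilies was called lower at an adjusted p of at most 0.05, the ERV internal part RLTR45-int, and 0 were called higher. Over all rows tested, genes included, 0.208% were called higher and 0.612% lower. At an unadjusted p under 0.05 there were 3 of 1097 repeats higher and 11 lower, beside 5.23% and 6.56% of all rows. DESeq2's Wald test called 0 repeats higher and 2 lower, beside 0.629% and 1.56% of all rows. The 16-library fit shares its spread with the IP libraries, whose replicates differed more: over repeats, the chi-square per degree of freedom between replicates was 11.2 to 29.1 in the inputs of the 4 lines and 190 to 1147 in their IPs. Few calls in the 16-library fit therefore do not show that few repeats differed. When the fit was restricted to the 8 inputs, the common coefficient of variation went from 0.273 to 0.158. Of 1085 repeats 5 were then called higher and 18 lower. At an unadjusted p under 0.05 there were 38 repeats higher and 39 lower. The background rose too in that fit, to 3.44% higher and 6.04% lower over all 20299 rows, while 0.461% of repeats were called higher and 1.66% lower. The share of repeats called was below that of all rows in both fits and both directions.

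Most subfamilies lay close to 0. The median log2 fold change of the tested repeats was 0.09, against 0.01 over all tested rows, and 839 of 1097 (76.5%) lay within 0.25 of 0. Positive values outnumbered negative ones, 755 against 342 (68.8% positive). Both *Mettl3* KO libraries were above both RBC libraries for 363 repeats (33.1%, against 28.5% of all rows) and both were below for 144 (13.1%, against 27.6% of all rows). This split depended on the scaling. Scaling by the total count of gene rows moved the median of all rows to 0.23 and the share of positive repeats to 89.3%, and size factors from repeat rows brought that share to 49.8%. Without replicate 1 of RBC it was 56.5% and without replicate 2 of RBC it was 73.7%. Changes are therefore best read against the median of all rows.

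Among the 457 repeats that averaged 1000 or more normalized counts over the 4 libraries, 14 had a log2 fold change beyond 0.5 in size. Of these 14, 12 were lower in *Mettl3* KO cells and 2 were higher. The 12 were L1 or ERV subfamilies, and SINEs, DNA transposons and satellites were not among them. In the fit of the 8 inputs 18 repeats were called lower. They were 10 of 276 tested ERVK members, 5 of 129 in ERV1, 2 of 132 in L1 and 1 of 7 satellites. Over all rows 6.04% were called lower in that fit. Internal parts made up 10 of the 18, as 8 of 45 in ERVK and 2 of 26 in ERV1.

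**Figure D1:**
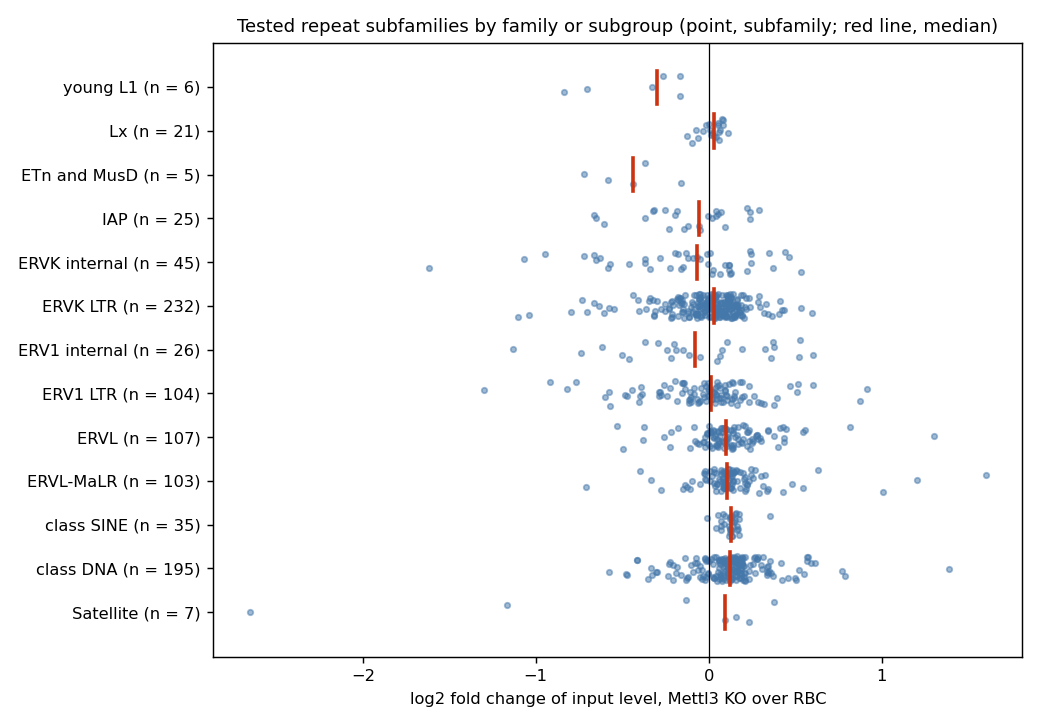
Each point is 1 tested repeat subfamily, placed by its log2 fold change of input level in *Mettl3* KO over RBC cells (x axis), in rows for families and subgroups, with the number of subfamilies and a red line at the median; heights within a row are spread at random. The medians of young L1 (-0.30) and of ETn and MusD (-0.44) lie left of 0. Those of SINEs (0.13) and DNA transposons (0.12) lie right of it. With scaling by total gene counts 4 of 6 young L1 and 4 of 5 ETn and MusD members stayed negative. That scaling moved the median of all rows to 0.23.

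RLTR45-int, the internal part of an ERVK element, was the repeat called in the 16-library fit. Its normalized read count was 3804 and 3748 in the *Mettl3* KO libraries and 11568 and 11571 in the RBC libraries. The groups were far apart and the replicates of each nearly equal. RBC cells held 3.06 times the level of *Mettl3* KO cells, a log2 fold change of -1.62 (SE 0.30, adjusted p = 0.0237, and 0.000256 in the fit of the 8 inputs). The call was lost when any 1 of the 4 libraries was left out of the 16-library fit, with adjusted p from 0.124 to 0.305, although the fold change stayed between -1.63 and -1.60. It was also lost with scaling by total gene counts (-1.40, adjusted p = 0.0888). The terminal repeat of the same element, RLTR45, moved less, with 1391 and 1421 normalized counts against 1950 and 1785, or -0.41 on the log2 scale (adjusted p = 0.518, and 0.0464 in the fit of the 8 inputs).

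The repeats named from here on either stand on a list of well-known mouse repeats or were called in the fit of the 8 inputs. The latter (RLTR45, ERVB4_2-I_MM-int, ERVB5_1-I_MM-int, IAP-d-int, RMER16-int, RMER16A3, RMER17A-int, RLTR13D5, RLTR4_MM-int, RLTR1D2_MM, LTRIS2, MURVY-int, MLT1J1-int and MurSAT1) were chosen after their values were seen. None of them was called in the 16-library fit.

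**Figure D2:**
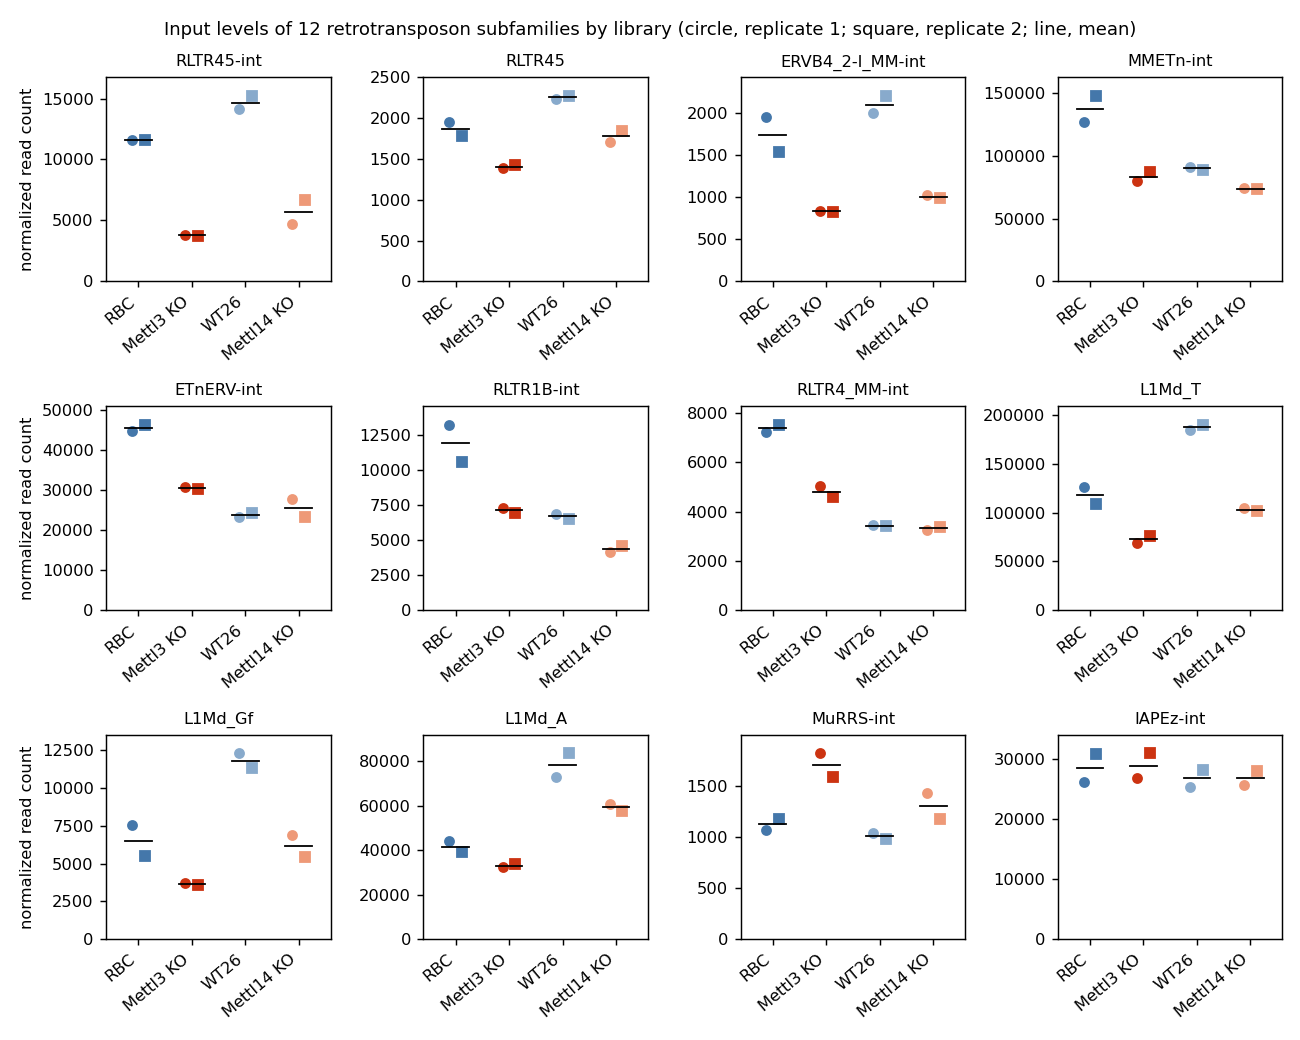
Normalized read count (y axis, linear from 0, scaled for each panel) of 12 LTR and L1 subfamilies in the 8 input libraries, with circles for replicate 1, squares for replicate 2 and a line at the mean of each line of cells. RLTR45-int stood at 3804 and 3748 in *Mettl3* KO against 11568 and 11571 in RBC cells, while IAPEz-int overlapped between them.

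The lower ERVK internal parts with the most reads belong to the ETn and MusD group, elements that still cause new insertions in laboratory mice. MusD codes for the proteins and ETn has lost its genes and moves with them. MMETn-int had 80033 and 86810 normalized counts in *Mettl3* KO and 126772 and 147867 in RBC cells. Its log2 fold change was -0.72 (SE 0.61, adjusted p = 0.745, and 0.00398 in the fit of the 8 inputs). ETnERV-int had 30732 and 30264 against 44770 and 46435, or -0.58 on the log2 scale (adjusted p = 0.759, and 0.0126 in the fit of the 8 inputs). In both subfamilies the 2 lines did not overlap, and the call rested on which libraries set the spread. The LTR of the group, RLTRETN_Mm, had 4376 and 4420 against 6163 and 5765 (log2 fold change -0.44, adjusted p = 0.700, and 0.0660 in the fit of the 8 inputs). ETnERV2-int differed less, at -0.16, and was the member of the group that became positive with scaling by total gene counts. Its value there was 0.043, against 0.23 for the median of all rows. All 5 members of the group were lower in both replicates, with a median log2 fold change of -0.44. Of tested repeats 13.1% were lower in both, and of all rows 27.6%. ETn, MusD and their LTRs are closely related in sequence, and multimapped reads were divided among them, so the 5 are not independent observations.

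The ERVK family as a whole went in no one direction, with 81 of 277 members (29.2%) higher and 57 (20.6%) lower in both replicates. Over all rows 28.5% were higher and 27.6% lower in both, and over tested repeats 33.1% and 13.1%. In the fit of the 8 inputs 2 of 276 members were called higher and 10 lower, beside 3.44% and 6.04% of all rows. Among the called rows with fewer reads, ERVB4_2-I_MM-int had 840 and 827 normalized counts in *Mettl3* KO against 1957 and 1533 in RBC cells, a log2 fold change of -1.07 (SE 0.41, adjusted p = 0.307, and 0.00153 in the fit of the 8 inputs). ERVB5_1-I_MM-int had 83.7 and 84.0 against 169 and 154 (-0.95, adjusted p = 0.255, and 0.0458). RMER16-int had 5258 and 5251 against 7205 and 7271 (-0.46, adjusted p = 0.797, and 0.0223). RMER16A3, an LTR, had 398 and 385 against 645 and 571 (-0.64, adjusted p = 0.325, and 0.0158). In each of these 4 rows the lines did not overlap. Over the ERVK family, 21 of 45 internal parts (46.7%) and 36 of 232 LTRs and other rows (15.5%) were lower in both replicates. Among all rows the share was 27.6%, and among tested repeats 13.1%. The median log2 fold change was -0.07 over the internal parts and 0.03 over the others. Higher ERVK members were RLTR13D5, an LTR with 1074 and 1031 against 658 and 735 (0.60, adjusted p = 0.742, and 0.0150 in the fit of the 8 inputs), and RMER17A-int with 686 and 659 against 461 and 468 (0.53, adjusted p = 0.637, and 0.0206).

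IAP elements, the most active ERVs of the mouse, did not move as a group. IAPEz-int, the internal part of the common IAP type, had 26807 and 30898 normalized counts in *Mettl3* KO and 26142 and 30881 in RBC cells, a log2 fold change of 0.02 with a 95% interval from -0.59 to 0.63. The libraries of the 2 lines interleaved. Its LTR IAPLTR1_Mm had a log2 fold change of 0.07, and IAPEY_LTR, the LTR of the IAPEy type, had -0.25. The rarer IAPEy-int had 979 and 827 against 1535 and 1307 (-0.65, adjusted p = 0.650, and 0.0429 in the fit of the 8 inputs) and IAP-d-int had 1263 and 1143 against 1661 and 2148 (-0.66, adjusted p = 0.248, and 0.0201), and in both the lines did not overlap. Of the 25 IAP subfamilies 10 (40%) were lower and 3 (12%) higher in both replicates. The shares were 13.1% and 33.1% of tested repeats, and 27.6% and 28.5% of all rows. Their median was -0.05. MMERVK10C-int, the internal part of another young ERVK, had a log2 fold change of -0.18 and RLTR10C, the LTR found with that family, 0.07. RNERVK23-int had 125 and 123 against 194 and 189 (-0.63, adjusted p = 0.752).

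ERV1 elements, related to the murine leukemia viruses, moved in both directions. RLTR1B-int had 7307 and 6951 normalized counts in *Mettl3* KO and 13237 and 10564 in RBC cells, a log2 fold change of -0.74 (SE 0.32, adjusted p = 0.378, and 0.00675 in the fit of the 8 inputs). RLTR4_MM-int, an internal part close to murine leukemia virus, had 5029 and 4589 against 7229 and 7529 (-0.62, adjusted p = 0.524, and 0.00734), and its LTR RLTR4_Mm had 723 and 708 against 1078 and 1090 (-0.60, adjusted p = 0.214, and 0.0201). Internal part and LTR of this element fell by nearly the same fold in the fit of the 8 inputs. LTRIS2 (-0.38) and RLTR1D2_MM (-0.57) were also called lower in that fit, with adjusted p of 0.0482 and 0.0156. On the other side, MuRRS-int had 1816 and 1589 against 1070 and 1174 (0.60, adjusted p = 0.281, and 0.0199 in the fit of the 8 inputs). MURVY-int, an element with many copies on the Y chromosome, had 2784 and 2488 against 1730 and 1926 (0.53, adjusted p = 0.405, and 0.0213). MMVL30-int and RLTR6-int, the VL30 elements, had log2 fold changes of -0.11 and -0.15 with overlap for MMVL30-int. Over the family, 35 of 130 members (26.9%) were lower and 24 (18.5%) higher in both replicates. The shares were 13.1% and 33.1% of tested repeats, and 27.6% and 28.5% of all rows.

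ERVL and MaLR elements, older LTR families that include the MERVL of 2-cell embryos, differed little between the lines. MERVL-int had 16265 and 20414 normalized counts in *Mettl3* KO and 16751 and 19358 in RBC cells, a log2 fold change of 0.02, and its LTR MT2_Mm had 7684 and 8757 against 7206 and 8138, a log2 fold change of 0.10. The intervals, -0.89 to 0.93 for MERVL-int and -0.51 to 0.71 for MT2_Mm, leave room for changes of moderate size. MTA_Mm (0.09) and ORR1A0 (-0.05), LTRs of MaLR elements used as promoters in oocytes and early embryos, were as close to 0. Of the MaLR members 88 of 103 were positive, beside 68.8% of all tested repeats, with a median of 0.10. In both replicates 57 MaLR members (55.3%) were higher and 9 (8.74%) lower. Of 107 ERVL members 44 (41.1%) were higher and 8 (7.48%) lower. The shares were 33.1% and 13.1% of tested repeats, and 28.5% and 27.6% of all rows. MLT1J1-int, an old MaLR internal part with few reads, was the MaLR member called in the fit of the 8 inputs, with 137 and 112 against 50.6 and 73.7 (1.01, adjusted p = 0.510, and 0.0472 in the fit of the 8 inputs).

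The youngest L1 subfamilies of the mouse are named L1Md, and of the 6 tested none was called in the 16-library fit and 2, L1Md_T and L1Md_Gf, were called lower in the fit of the 8 inputs. L1Md_T had 69210 and 75949 normalized counts in *Mettl3* KO and 126859 and 109171 in RBC cells, a log2 fold change of -0.70 (SE 0.45, adjusted p = 0.630, and 0.00457 in the fit of the 8 inputs). L1Md_Gf had 3728 and 3550 against 7531 and 5494, a log2 fold change of -0.84 (SE 0.39, adjusted p = 0.418, and 0.0106). L1Md_A had 32284 and 33906 against 44152 and 39070 (-0.33, adjusted p = 0.844, and 0.106). These 3 are the subfamilies in which active copies are known. The 3 of the L1Md_F kind differed less, with -0.26 for L1Md_F, -0.17 for L1Md_F2 and -0.16 for L1Md_F3. All 6 were lower in both replicates in the main scaling, beside 13.1% of tested repeats and 27.6% of all rows. With scaling by total gene counts L1Md_F2 and L1Md_F3 became positive (0.059 and 0.048), below the median of all rows in that scaling, 0.23. Since the subfamilies share most of their sequence and multimapped reads were divided among them, the 6 are not independent.

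Older L1 rows had medians closer to 0 or above it. The median log2 fold change was -0.30 over the 6 L1Md members, 0.03 over 21 Lx members, and 0.12 over the other 105 L1 members. Of the Lx members 3 (14.3%) were lower in both replicates, and of the others 6 (5.71%). The share was 13.1% of tested repeats and 27.6% of all rows. L1_Mus1 (0.02), L1_Mus3 (-0.01) and Lx (0.06) lay near 0, and L1VL1 was at -0.15. The summed L1 level therefore hardly moved, with a log2 fold change of -0.03 (95% interval -0.89 to 0.82). No test of the difference between young and old L1 was made.

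Among SINEs, short elements copied by L1 proteins and spread through introns, values were small and mostly positive. Of 35 subfamilies 34 had a positive log2 fold change, and the median was 0.13. In both replicates 18 (51.4%) were higher and 0 lower, against 33.1% and 13.1% of tested repeats and 28.5% and 27.6% of all rows. B3, a B2-type SINE, had 466724 and 484865 normalized counts in *Mettl3* KO and 406817 and 463299 in RBC cells (0.13, adjusted p = 0.966). B2_Mm2 had 243327 and 253925 against 212406 and 243281 (0.13, adjusted p = 0.964). These sizes hung on the RBC libraries. Without replicate 1 of RBC the value was 0.038 for B3 and 0.031 for B2_Mm2, and without replicate 2 of RBC it was 0.23 for both. For B1_Mm (0.05) and B1_Mus1 (0.07) the lines overlapped. Both became negative with size factors from repeat rows (-0.032 and -0.012), where the median of all rows was -0.077. MIR, an ancient SINE, was at 0.16 and ID_B1 at 0.13, and B4 was the member at or below 0, at -0.01. Beside the 34 of 35 SINEs, 68.8% of all tested repeats were positive in the same scaling.

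**Figure D3:**
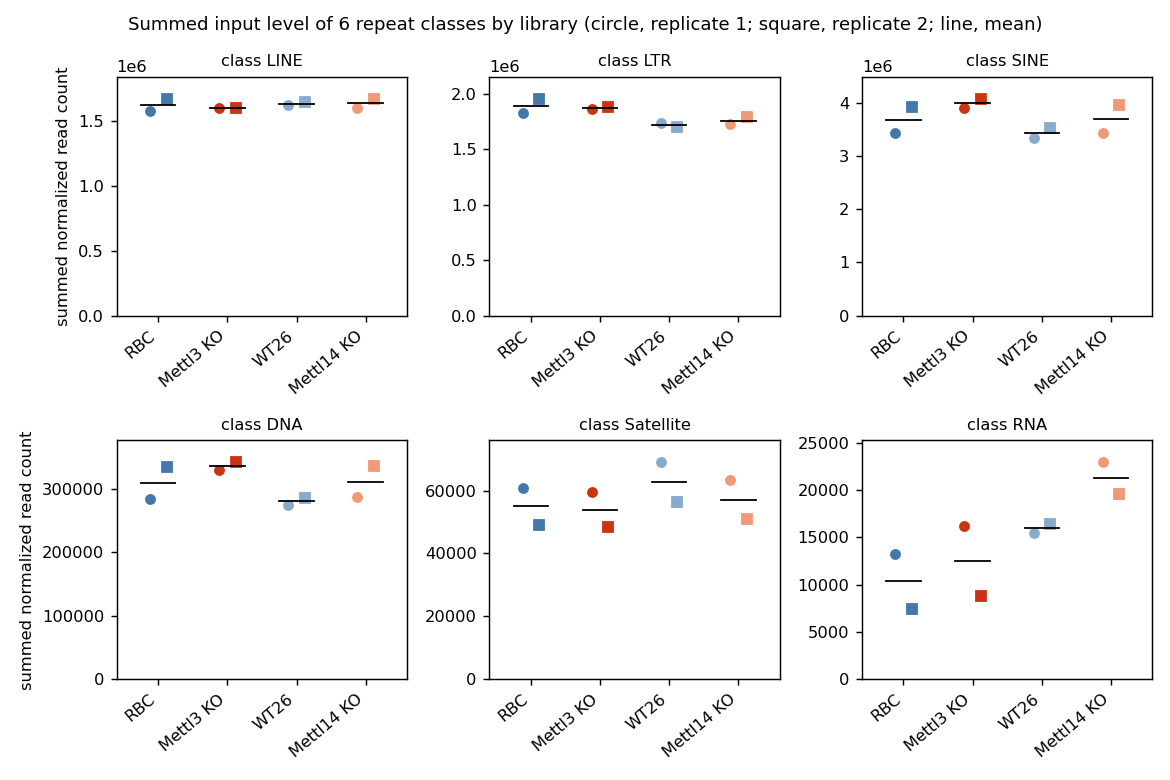
Summed normalized read count of 6 repeat classes (y axis, linear from 0, scaled for each panel, with powers of 10 above the axis) in the 8 input libraries, with circles for replicate 1, squares for replicate 2 and a line at the mean. In each of the 6 classes *Mettl3* KO and RBC libraries overlapped, with log2 fold changes between -0.03 (Satellite) and 0.27 (RNA).

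Summed by class, no difference was detectable. SINE rows together had 3898510 and 4072389 normalized counts in *Mettl3* KO and 3426293 and 3913906 in RBC cells, a log2 fold change of 0.12 (95% interval -1.03 to 1.27, and -0.55 to 0.79 in the fit of the 8 inputs). Leaving out 1 library moved it between 0.026, without replicate 1 of RBC, and 0.22, without replicate 2 of RBC. LTR rows had 1867199 and 1877776 against 1828354 and 1955857 (-0.02, 95% interval -0.95 to 0.92), and LINE rows had 1598983 and 1601636 against 1574209 and 1666006 (-0.02, 95% interval -0.94 to 0.90). DNA transposons were at 0.12 and satellites at -0.03. Adjusted p was 0.932 or more in each of these classes in the 16-library fit. With scaling by total gene counts the LINE (0.19), LTR (0.20) and satellite (0.21) totals turned positive. That scaling moved the median of all rows to 0.23, so each stayed slightly below the median, as in the main scaling. Leaving out 1 library could change the sign of each of them, so these totals carry no direction.

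Family totals hid the subfamilies described above. The ERVK total was lower in both *Mettl3* KO replicates, with 636866 and 637673 normalized counts against 695587 and 732769 (log2 fold change -0.16, SE 0.43, adjusted p = 0.931), and so was the ERV1 total, with 130620 and 131213 against 141176 and 142340 (-0.11, SE 0.28, adjusted p = 0.924). Both turned positive with scaling by total gene counts (0.048 and 0.10), but stayed below the median of all rows there, 0.23. The totals of ERVL (0.09), MaLR (0.09), L2 (0.13), B2 (0.12), B4 (0.11), ID (0.16) and MIR (0.17) were slightly positive. Each of these was higher in both *Mettl3* KO replicates. The total of Alu, the family that holds mouse B1, was at 0.11 with overlap. None of these totals was called. Over all rows 28.5% were higher and 27.6% lower in both replicates.

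Satellites were measured with less precision. GSAT_MM, the row of the major satellite repeats of pericentric heterochromatin, had 1735 and 550 normalized counts in *Mettl3* KO and 1568 and 578 in RBC cells. Its level followed the replicate number, high in replicate 1 and low in replicate 2 of both lines, and the log2 fold change was 0.09 with a 95% interval from -1.50 to 1.69. WT26 cells showed the same step, with 1840 and 594. The RNA of the 7SK gene family, a small nuclear RNA that regulates elongation, was also higher in replicate 1 of these lines, with 16208 and 8750 against 13260 and 7401, but not in WT26 cells, with 15453 and 16402. MMSAT4, a satellite-like row with more reads, had 36696 and 29750 against 41164 and 31556 (-0.13, adjusted p = 0.942).

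The minor satellite row SYNREP_MM had 126 and 102 normalized counts in *Mettl3* KO and 260 and 255 in RBC cells, a log2 fold change of -1.17 (SE 0.69, adjusted p = 0.581, and 0.205 in the fit of the 8 inputs). MurSAT1 rested on few reads, 11 and 4 raw counts in *Mettl3* KO and 66 and 27 in RBC cells, or 10.2 and 6.59 against 75.9 and 34.9 normalized counts (-2.65, SE 0.62, adjusted p = 0.0672, and 0.00703 in the fit of the 8 inputs). In both rows the 2 lines did not overlap, and neither was called in the 16-library fit. Both calls depended on the fit. With a replicate block in the 16 libraries MurSAT1 was called (adjusted p = 0.0360) and SYNREP_MM was not (0.340). DESeq2 called MurSAT1 (adjusted p = 0.00228), and a fit of the 4 libraries alone called both (0.0148 for MurSAT1 and 0.00817 for SYNREP_MM), as did the 16-library fit without a filter on low counts.

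**Figure D4:**
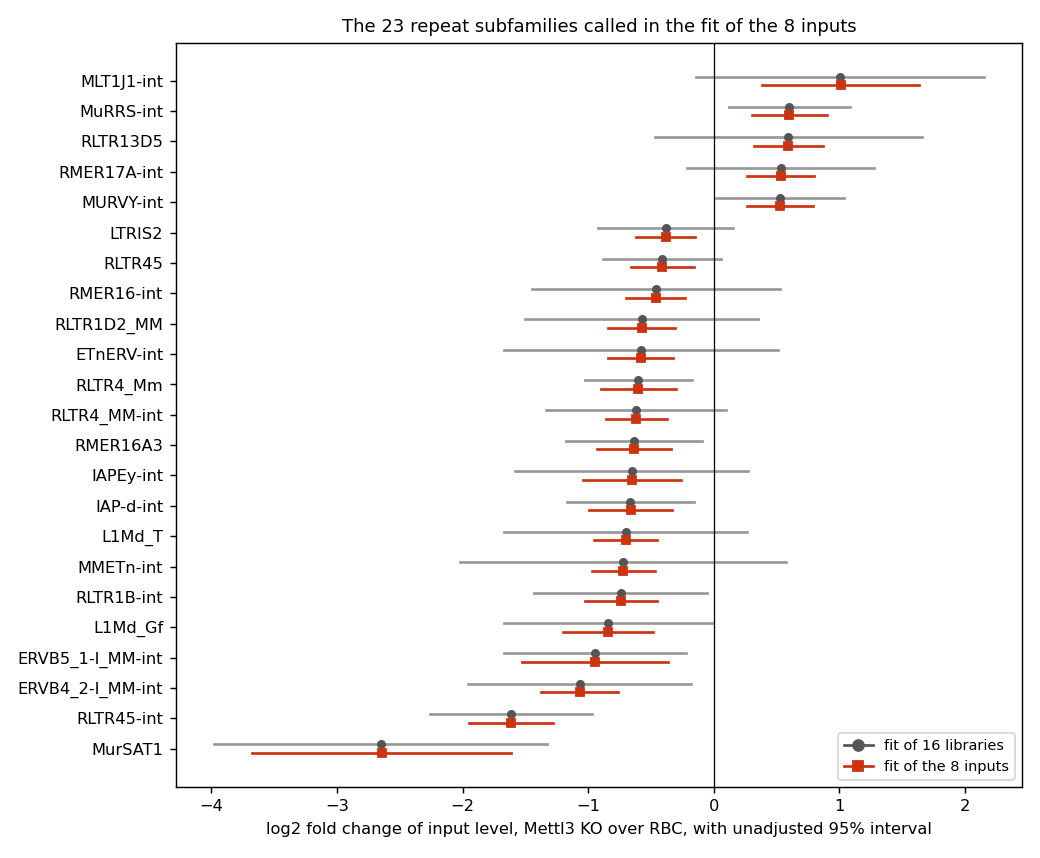
Log2 fold change of input level in *Mettl3* KO over RBC cells (x axis) with its unadjusted 95% interval for the 23 repeats called in the fit of the 8 inputs, from the fit of 16 libraries (grey circles) and from that of the 8 inputs (red squares). The estimates coincide and the intervals of the 16-library fit are wider; for MMETn-int they reach from -2.02 to 0.58 and from -0.97 to -0.47.

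The *Mettl14* KO clone against WT26 gives a comparison that shares no library with that of *Mettl3* KO against RBC. In the 16-library fit 2 repeats were called higher and 1 lower there, beside 0.133% and 0.297% of all rows. RLTR45-int had 4721 and 6672 normalized counts in *Mettl14* KO and 14116 and 15237 in WT26 cells, a log2 fold change of -1.37 (SE 0.30, adjusted p = 0.0669, and 0.00116 in the fit of the 8 inputs). The difference between the knockouts was -0.25 (95% interval -1.14 to 0.64). L1Md_T was at -0.86 and L1Md_Gf at -0.94 in *Mettl14* KO, with 104323 and 102182 against 184749 and 190345 for L1Md_T. ERVB4_2-I_MM-int was at -1.06 and RLTR1B-int at -0.62. These members were lower in both mutant clones, each against its own control, and, like RLTR45-int, the other 4 were called lower in *Mettl14* KO in the fit of the 8 inputs, where 4.49% of all rows were called lower (adjusted p = 0.00248 for L1Md_T, 0.00752 for L1Md_Gf, 0.00230 for ERVB4_2-I_MM-int and 0.0173 for RLTR1B-int).

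Not all other members followed. ETnERV-int was at 0.10 in *Mettl14* KO, with 27785 and 23228 normalized counts against 23321 and 24260 in WT26 cells, and RLTR4_MM-int was at -0.05, with 3266 and 3384 against 3467 and 3404. For both, RBC cells had the highest level of the 4 lines, and the *Mettl3* KO level lay between RBC and the other lines. The difference of the changes was -0.68 for ETnERV-int (95% interval -2.22 to 0.86) and -0.57 for RLTR4_MM-int (95% interval -1.58 to 0.44), and neither was called in either fit (adjusted p = 0.0565 and 0.0812 in the fit of the 8 inputs). MMETn-int was at -0.29 and IAPEy-int at 0.54, with a difference of -1.20 for IAPEy-int (95% interval -2.51 to 0.12, adjusted p = 0.759, and 0.0321 in the fit of the 8 inputs, where 2.67% of all rows had a called difference). MURVY-int was higher in both knockouts (0.53 and 1.05), and its level in RBC cells already exceeded that in WT26 cells by 1.62 on the log2 scale (adjusted p = 0.00683).

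Across all rows, 0.142% changed differently in the 2 knockouts in the 16-library fit, and 2 repeats were among them. These were the satellite rows SYNREP_MM and MurSAT1, which were lower in *Mettl3* KO and far higher in *Mettl14* KO. Between the controls, 0.301% of rows were higher in RBC than in WT26 cells and 0.279% were lower, with 2 repeats higher and 1 lower. That comparison shares the RBC inputs with the one of *Mettl3* KO.

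**Figure D5:**
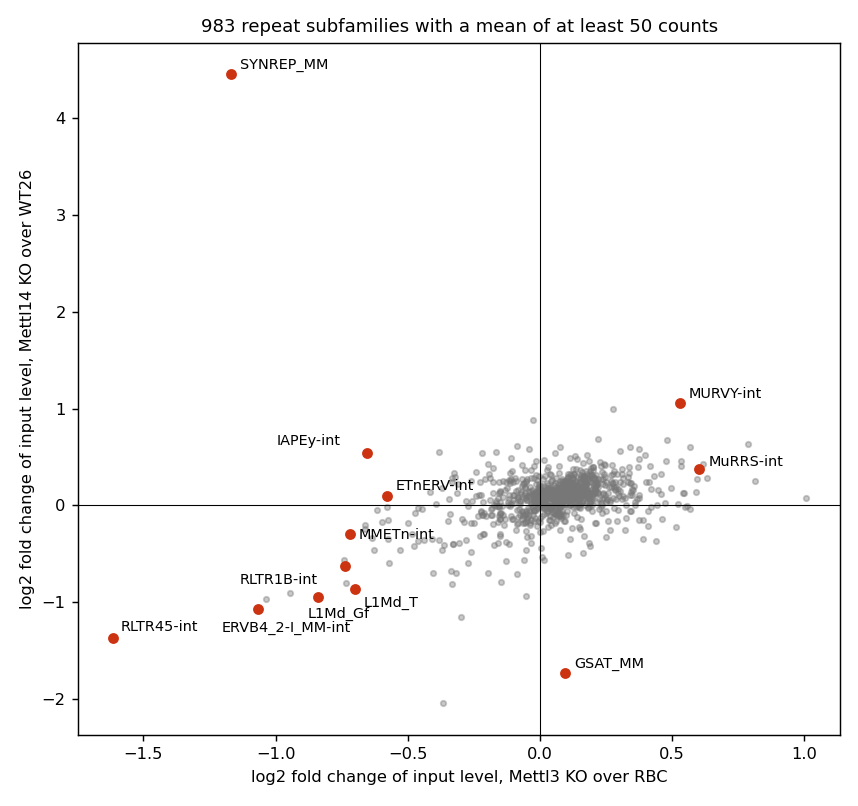
Log2 fold change of input level in *Mettl14* KO over WT26 cells (y axis) against that in *Mettl3* KO over RBC cells (x axis) for the 983 tested repeats that averaged 50 or more normalized counts, with named members in red. RLTR45-int (-1.62 and -1.37), L1Md_T (-0.70 and -0.86) and ERVB4_2-I_MM-int (-1.07 and -1.06) lie in the lower left, and SYNREP_MM (-1.17 and 4.45) lies apart at the top.

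As a description across repeats, which share libraries, depth and reads, Pearson's r between the changes in the 2 knockouts was 0.33 over the 983 tested repeats that averaged 50 or more normalized counts and -0.04 over all 1097, where rows with few reads and MurSAT1 enter. The sign was the same in both knockouts for 788 of 1097 repeats (71.8%) and for 20 of the 23 called in the fit of the 8 inputs (87.0%). By direction, 15 of the 18 called lower were also negative in *Mettl14* KO, beside 164 of all 342 repeats that were negative in *Mettl3* KO (48.0%). The 5 called higher were positive in both, beside 802 of all 1097 tested repeats (73.1%) that were positive in *Mettl14* KO. The exceptions were ETnERV-int, IAPEy-int and MurSAT1.

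The IP of the same replicates gives another readout of these members, the log2 ratio of IP over input. It uses the same inputs as the comparison above, so a value set against it shares its error. L1Md_T had a ratio of 1.75 (SE 0.46) in RBC and 1.03 (SE 0.45) in *Mettl3* KO cells, L1Md_Gf had 1.98 and 1.33, and L1Md_A had 1.24 and 0.55. MMETn-int and ETnERV-int had negative ratios, -1.83 and -1.47 in RBC cells, against -1.11 and -0.59 without *Mettl3*. Since the size factors came from gene rows, each ratio is relative to the typical gene. RLTR45-int had -0.58 (SE 0.29) in RBC and -0.60 (SE 0.29) in *Mettl3* KO cells. Thus the members that were lower in the input of *Mettl3* KO cells included rows with a high and rows with a low ratio of IP over input in RBC cells.

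Genes known to silence repeats, listed together with Tet1 and Tet2, were examined in the same fit. Of 38 tested members of a list of 39 names, none was called in the 16-library fit (edgeR), 1 was called higher and 4 lower in the fit of the 8 inputs, where 3.44% of all rows were called higher and 6.04% lower, and the median log2 fold change was -0.07. The counts are small, so they are no result about the list. In the fit of the 8 inputs Trim28 was lower (4651 and 5136 normalized counts against 7548 and 7078 in RBC cells, -0.58, adjusted p = 0.0182), as were Dnmt1, the maintenance DNA methyltransferase (-0.53, adjusted p = 0.0190), Fam208a of the HUSH silencing complex (-0.53, adjusted p = 0.0321) and Tet2, which oxidizes 5-methylcytosine (-0.92, adjusted p = 0.0187). Dnmt3a, a de novo DNA methyltransferase, was higher (736 and 667 against 465 and 469, 0.59, adjusted p = 0.0208). Setdb1 was at 0.16. Of 20 genes of the m6A pathway none was called in the 16-library fit, and 2 were called higher and 1 lower in the fit of the 8 inputs, Rbm15 (0.51), Igf2bp2 (0.75) and Hnrnpa2b1 (-0.42), beside the same 3.44% and 6.04% of all rows.

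Markers of the cell type moved with the comparison. The 10 ES cell markers were all expressed, with summed levels of 12764 and 11798 normalized counts in *Mettl3* KO against 19266 and 18572 in RBC cells. None was called in the 16-library fit, and 5 of 10 were called lower in the fit of the 8 inputs, beside 6.04% of all rows, Pou5f1 (-0.50), Esrrb (-0.45), Tdgf1 (-1.32), Dppa5a (-1.41) and Utf1 (-0.60). Summed markers of other cell types lay below those of ES cells in both lines, and were highest for neuroectoderm. Those of primitive endoderm (7 genes) had 126 and 156 against 132 and 165 normalized counts, those of trophoblast (5 genes) 312 and 265 against 228 and 242, those of neuroectoderm (4 genes) 945 and 804 against 856 and 567, those of mesoderm (4 genes) 39.98 and 34.6 against 37.96 and 16.8, those of fibroblast feeders (5 genes) 43.7 and 32.9 against 110 and 20.7, and those of 2-cell-like cells (10 genes) 39.98 and 41.2 against 129 and 62.0. In these 6 lists 0 genes were called in either fit, and 1 marker each of the 2-cell-like and the trophoblast list was at 0 in all 4 libraries. The part of the ES cell markers and of replicate 1 of RBC in the levels of L1Md and ERV transcripts was not tested.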

How the data were processed

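Raw counts per gene and per repeat subfamily were deposited by the authors, with no normalization. According to the methods and labels, the authors removed adapters (cutadapt 1.8.1), mapped reads on GRCm38 (STAR 2.6.0c), keeping those with up to 100 positions, and counted with TEtranscripts, which divides multimapped reads among copies, on the RepeatMasker annotation of UCSC. Libraries were made from rRNA-depleted nuclear RNA with random hexamers. Columns were assigned by label, with 0 per-sample columns left over.

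edgeR 4.0.16 (glmQLFit, glmQLFTest, filterByExpr; R 4.3.3) was fitted to 16 libraries in 8 groups, with median-of-ratios size factors of DESeq2 1.42.0 from gene rows. Adjusted p-values cover all tested rows, and a call is an adjusted p of at most 0.05. Class and family sums were tested in the same way beside the genes. Log2 fold changes are *Mettl3* KO over RBC. The tests were tried on simulated data.

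Repeats were named from a list of 48 (41 had a row, and all 41 were tested) or, by the rule, as the 3 largest called changes per class in the 16-library fit with a mean of at least 50. The repeats called in the fit of the 8 inputs were named outside this rule, after their values were seen. Members and lists were chosen with earlier results of these data known. Alternatives were other scalings, DESeq2, other filters, fewer libraries, a replicate block and leaving out each replicate. Fits of the 8 inputs with their own size factors or with a replicate block were chosen after seeing the data. Repeat sequences were not used here, nor was the RNA-seq table, which holds genes alone. Depth bounds the counting error alone; the spread of 2 replicates limits precision more.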

Additional observations from a re-analysis of the deposited data

Results flagged for a closer look

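The changes in the 2 knockouts differed for SYNREP_MM and MurSAT1 by the test of the difference itself. SYNREP_MM, the minor satellite row, differed by -5.62 on the log2 scale (SE 0.999, adjusted p = 0.0446 in the 16-library fit of edgeR, and 0.00424 in the fit of the 8 inputs), from -1.17 in *Mettl3* KO and 4.45 in *Mettl14* KO, where 11105 and 3216 normalized counts stood against 205 and 457 in WT26 cells. MurSAT1 differed by -11.79 (SE 0.91, adjusted p = 2.38e-05, and 2.97e-06), from -2.65 and 9.14, with 1788 and 2445 normalized counts in *Mettl14* KO against 4.83 and 1.55 in WT26 cells. The fitted size for MurSAT1 depends on the few reads in WT26 cells. Both *Mettl14* KO libraries are of 1 clone, and the cause of the difference was not tested.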

How the results depend on the processing

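The 16-library fit called 0 repeats higher and 1 lower. The count of lower calls was 2 with DESeq2, 2 with a replicate block, 4 without a filter on low counts, 0 with scaling by total gene counts, and 0 when any 1 library was left out. The 8 inputs gave 5 higher and 18 lower (4 and 18 with their own size factors, 16 and 28 with a replicate block), and the 4 libraries alone gave 8 and 21. Repeats whose change was lower in *Mettl3* KO than in *Mettl14* KO numbered 2, against 1 with TMM, 1 with repeat size factors, 0 with at least 10 counts in each library, 6 in the 8 inputs and 1 when any 1 library was left out. Those with a higher change numbered 0, against 2 without a filter and 2 in the 8 inputs.

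Scaling by total gene counts, which moved the median of all rows to 0.23, turned these values positive: the class totals LINE (0.19), LTR (0.20) and Satellite (0.21), the family totals ERV1 (0.10), ERVK (0.048) and L1 (0.18), and the repeats B4 (0.22), ETnERV2-int (0.043), L1Md_F2 (0.059), L1Md_F3 (0.048), L1VL1 (0.043), L1_Mus3 (0.20), MMERVK10C-int (0.050), MMSAT4 (0.11), MMVL30-int (0.12), ORR1A0 (0.16) and RLTR6-int (0.057). Size factors from repeat rows moved the median of all rows to -0.077. They turned negative B1_Mm (-0.032), B1_Mus1 (-0.012), GSAT_MM (-0.016), IAPEz-int (-0.068), IAPLTR1_Mm (-0.014), L1_Mus1 (-0.070), Lx (-0.031), MERVL-int (-0.064) and RLTR10C (-0.015). With a replicate block B4 became 0.0074.

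Leaving out 1 library gave ranges that crossed 0 for the class totals LINE (-0.058 to 0.024), LTR (-0.063 to 0.034), RNA (-0.24 to 0.75) and Satellite (-0.18 to 0.13), for the family totals Alu (-0.0032 to 0.23) and L1 (-0.071 to 0.0060), and for 7SK (-0.24 to 0.75), B1_Mm (-0.099 to 0.22), B1_Mus1 (-0.051 to 0.21), B4 (-0.078 to 0.067), GSAT_MM (-0.96 to 0.99), IAPEz-int (-0.098 to 0.14), L1_Mus1 (-0.019 to 0.054), L1_Mus3 (-0.040 to 0.014), MERVL-int (-0.15 to 0.18) and MMSAT4 (-0.31 to 0.074). With 1 library left in an arm, that library is assumed to vary like the other groups. RLTR45-int kept its direction in every alternative run.

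The labels give both lines replicates 1 and 2 but name no shared batch, and 2 numbers are too few to tell from the data whether they pair the samples. Deviations of same-numbered RBC and *Mettl3* KO inputs correlated at 0.57 over 946 repeats and 0.37 over 12723 genes. For WT26 and *Mettl14* KO inputs the values were 0.41 and 0.45, and for RBC and WT26 inputs 0.47 and 0.25. The correlation was thus positive in each pair of input lines compared. The block added the call of MurSAT1 (adjusted p = 0.0360). Depth limits rows with few reads, such as MurSAT1.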
